A study of Mus musculus with 12 samples.

Results

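The skin homing chemokines CCL27, CCL20 and CCL28 and their receptors were followed in RNA from mouse skin wounds. They were chosen by family and role with earlier results of these data in view, among them the TPM of Gm13306 in CAP and sham wounds at day 3. The members were all rows of the expression tables named Gm13306, Ccl27a, Ccl27b, Ccl28, Ccl20, Ccr10 or Ccr6, which gave 9 of 55487 rows. The name Ccl27a was carried by 3 rows, so the 7 names stood for 9 rows, and the 5 rows named Gm13306, Ccl27a or Ccl27b were also added up as the CCL27 sum. The wounds were full-thickness punch wounds on the back of 6-week-old male C57BL/6JNarl mice, a pair on each mouse. Wounds of the sham group received Pluronic F127 gel alone each day, and CAP-treated wounds received 10 µM capsaicin (CAP) in the same gel. The gel was thus common to all groups, and no unwounded or gel-free skin was analysed here. Whole wound tissue was taken at day 3 and day 6, with 3 libraries in each of the 4 groups and 12 libraries in all. Which libraries came from the same mouse is not given, so the p-values measure the spread between libraries. Values were TPM, a measure of transcript abundance scaled to gene length and to the total of the library. The read depth behind them was unknown.

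CCL27 is made constitutively by keratinocytes of the epidermis and attracts T cells that carry its receptor, CCR10. CCL28, a chemokine of mucosal epithelia, is the other ligand of CCR10. CCL20 is induced in keratinocytes by inflammatory cytokines such as IL-1, TNF and IL-17, and it is the chemokine ligand of CCR6, which is found on IL-17-producing T cells, regulatory T cells, B cells and some dendritic cells. Several β-defensins, antimicrobial peptides of epithelia, can also act on CCR6. The mouse genome holds several near-identical copies of the Ccl27 gene, interspersed with copies of the IL-11 receptor gene.

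The coding sequences of the 3 CCL27 copies on chromosome 4 differed at 3 positions at most. They were taken from GENCODE M21 transcripts on GRCm38. That of Ccl27a lay at chr4:41769498-41770190 on the minus strand, that of Gm13306 at chr4:42158126-42158818 on the plus strand and that of Ccl27b at chr4:42655285-42655977 on the plus strand. Each was spread over 3 exons and was 363 bases long. The sequences of Gm13306 and Ccl27b were identical and are printed as 1. The stretch from position 151 to the end, position 363, is shown because it holds all differences between the copies. Capitals mark the 3 positions at which Ccl27a differed from them, C177T, G297A and A343C, with the base of Ccl27a first and positions counted from 1 at the first base of the start codon.
Ccl27a: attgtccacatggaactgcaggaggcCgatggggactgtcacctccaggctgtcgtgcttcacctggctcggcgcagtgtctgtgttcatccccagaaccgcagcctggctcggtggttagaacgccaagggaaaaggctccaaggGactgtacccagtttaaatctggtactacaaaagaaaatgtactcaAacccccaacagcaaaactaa
Gm13306 and Ccl27b: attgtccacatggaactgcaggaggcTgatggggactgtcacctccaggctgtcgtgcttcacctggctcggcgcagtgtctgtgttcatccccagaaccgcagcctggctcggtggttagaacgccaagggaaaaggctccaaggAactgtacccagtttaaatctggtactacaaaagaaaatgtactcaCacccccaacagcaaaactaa

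Of all stretches of 31 bases in the transcripts of Ccl27b, 98.2% were also found in Gm13306 and 100% in some other gene. For Gm13306 the share found in other genes was 80.6%, with 67.7% in Ccl27a and 36.7% in Ccl27b. For the chromosome 4 row of Ccl27a it was 57.0%, with 27.9% in Gm13306 and 11.8% in Ccl27b. The gene that shared most with this row, at 37.7%, was not a CCL27 row. Within the coding sequence of Gm13306, 24.9% of the stretches were absent from that of Ccl27a. The other 2 Ccl27a rows lay on scaffolds outside the assembled chromosome sequences, and their transcripts were not analysed here. No stretch of Ccl20 or Ccr10 was shared with another gene, and under 1% of those of Ccl28 and Ccr6 were, with 0.772% and 0.905%. The identity reached into the promoter. In the RefSeq table for GRCm38.p6, the window from 250 bases before to 50 bases after the start of the transcript encoding this sequence was the same in Gm13306 and Ccl27b, with 0 differences over 300 bases. Against Ccl27a, shifted by 12 bases, there were 2 differences over 288 bases. The 250 bases before the start are shown for Gm13306 (chr4:42157842-42158091, plus strand) and Ccl27b (chr4:42655001-42655250, plus strand), with a match to TGACTCA, the letters of an AP-1 element, in capitals.
Gm13306 and Ccl27b promoter: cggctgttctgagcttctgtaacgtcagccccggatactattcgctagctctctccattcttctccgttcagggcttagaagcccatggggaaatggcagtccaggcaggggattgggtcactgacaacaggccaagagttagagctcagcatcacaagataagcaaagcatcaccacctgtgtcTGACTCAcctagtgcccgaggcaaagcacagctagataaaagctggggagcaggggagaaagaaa

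The same letters, on either strand, were in the 250 bases before the start of 4.46% of the 32851 promoters in the table. A match of this kind is a description and not a binding site.

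CCL27 was the most abundant of these chemokines, and its RNA was lower at day 6 than at day 3 in all but 1 wound library. In the sham group at day 3 the CCL27 sum was 194.6, 185.3 and 200.6 TPM in replicates 1, 2 and 3. In CAP-treated wounds at day 3 it was 262.8, 257.9 and 177.9 TPM. At day 6 the sham group had 322.5, 72.9 and 81.3 TPM, and CAP-treated wounds had 70.8, 60.3 and 104.5 TPM. Of the 6 libraries of day 6, 5 were thus below every library of day 3, and sham replicate 1 was above them all. Group means were 194 ± 7.75 (SD, n = 3) and 233 ± 47.6 TPM in sham and CAP-treated wounds at day 3, and 159 ± 142 and 78.5 ± 23.1 TPM at day 6. In the order of these means, CAP day 3, sham day 3, sham day 6 and CAP day 6, the libraries of each neighbouring pair of groups overlapped.

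Over both treatments the CCL27 sum was 2.16-fold lower at day 6 than at day 3, a log2 difference of -1.11 (SE 0.33, limma, unadjusted p = 0.00588). An exact permutation test of the day labels within each treatment, 2-sided over 400 divisions, gave p = 0.025. The difference was -1.46 without sham day 6 replicate 1. It missed the 2-fold threshold without sham day 6 replicate 2, with -0.92, and without sham day 6 replicate 3, with -0.96. Differences are given throughout on the scale of log2(TPM + 0.1). A gene was called when its unadjusted p was under 0.05 and its difference at least 2-fold, after a filter that asked for a mean of at least 0.3 TPM on both sides. By this rule 1 of the 6 member rows that passed the filter was called lower at day 6, and 0 higher, against 1.29% of the 18490 genes tested called lower, 0.892% called higher and 2.18% called in all. That row was Ccl27b, with a difference of -1.30 (SE 0.40, limma p = 0.00791, adjusted p = 0.129, exact permutation p = 0.025). The Ccl27a row on chromosome 4 came to -0.92 (SE 0.28, limma adjusted p = 0.126, exact permutation p = 0.03) and stayed under 2-fold. The scaffold rows of Ccl27a came to -0.88 (JH584294.1) and -1.39 (JH584293.1), with exact permutation p = 0.275 and 0.09. Gm13306 was the exception to the fall over both treatments, with 0.14 (SE 0.37, exact permutation p = 0.87). That value averages 2 opposite changes. From day 3 to day 6 the mean log2 level of Gm13306 changed by 1.99 in the sham group and by -1.72 with CAP, each given with no test. The sham change starts from low day 3 values that had part in the choice of the members. In bulk tissue, fewer keratinocytes and less CCL27 RNA per keratinocyte cannot be told apart.

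Between CAP and sham wounds of day 6, the difference in the CCL27 sum was within the spread between libraries. It was -0.70 (SE 0.56, limma p = 0.250), and an exact permutation test over 20 divisions gave p = 0.5, where the smallest p that 3 against 3 libraries allow is 0.1. It rested on sham replicate 1, without which it was -0.01. In that library the hair follicle genes also summed highest, to 93.2 TPM against 5.69 to 29.7 TPM in the other 11, while the suprabasal genes summed to 17760 TPM, within the range of the other libraries. Their part in the CCL27 level was not tested. At day 3, as a description with no test, the sum was higher with CAP by 0.25 on the log2 scale and the libraries overlapped.

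**Figure D1:**
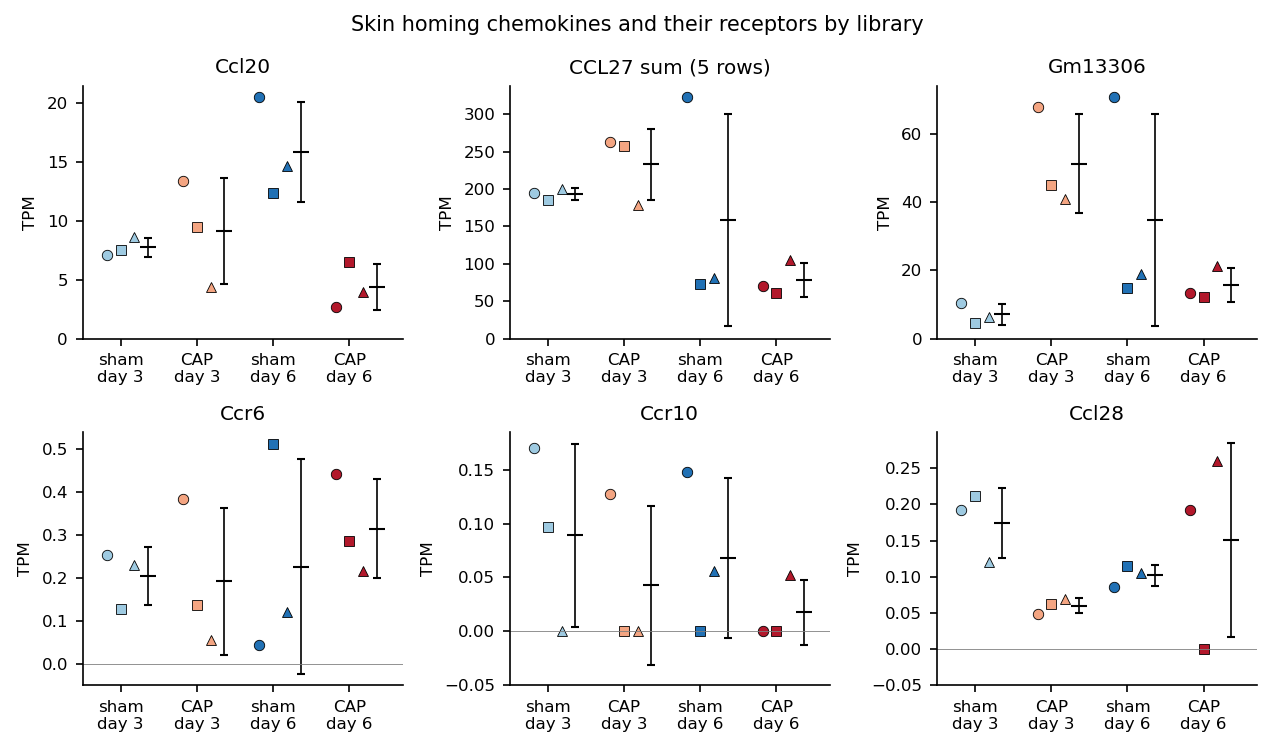
TPM of Ccl20, the CCL27 sum, Gm13306, Ccr6, Ccr10 and Ccl28 in each library of the 4 groups, with circles, squares and triangles for replicates 1, 2 and 3 and a bar for the mean ± SD of 3 libraries. The 3 CAP-treated wounds of day 6 had 2.72 to 6.51 TPM of Ccl20 and lay below the 12.3 to 20.5 TPM of the sham group, and both receptors and Ccl28 stayed under 0.6 TPM throughout.

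Gm13306, the CCL27 copy whose day 3 values had part in the choice of the members, had 10.5, 4.63 and 6.22 TPM in the sham group and 67.9, 45.0 and 40.9 TPM in CAP-treated wounds at day 3. At day 6 it had 70.8, 14.7 and 19.0 TPM in the sham group and 13.4, 12.1 and 21.3 TPM in CAP-treated wounds. The low group was the sham group of day 3 alone, and its libraries did not overlap those of any other group. At day 3 the log2 difference was 2.88, which is 7.35-fold. It is given with no test. Over all genes 1.58% of 18330 were called at day 3, 0.426% higher and 1.16% lower, and 0.0164% passed an adjusted limma p of 0.05. The CAP and sham groups of day 3 did not overlap in 11.6% of the genes tested. Nothing is read from these shares for Gm13306. At day 6 the difference was -0.84 (SE 0.57, limma adjusted p = 0.431, exact permutation p = 0.4).

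The other CCL27 rows had smaller differences at day 3, again given with no test. Ccl27b had 46.9, 31.4 and 98.8 TPM in the sham group and 67.3, 44.7 and 39.8 TPM in CAP-treated wounds, a difference of -0.09. The chromosome 4 row of Ccl27a had 50.9, 57.7 and 77.2 TPM against 76.5, 59.7 and 45.5 TPM, a difference of -0.04. The CCL27 sum without Gm13306 differed by -0.06. The rows on the scaffolds varied most between replicates. That on JH584294.1 had 42.3, 28.5 and 3.00 TPM in the sham group and 40.8, 26.98 and 23.8 TPM with CAP, a difference of 0.94. That on JH584293.1 had 44.0, 63.0 and 15.3 TPM in the sham group and 10.4, 81.4 and 27.9 TPM with CAP, a difference of -0.28.

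The ratio of Gm13306 to Ccl27b, whose coding sequences are identical, set the sham libraries of day 3 apart from the other 9. In those 9 libraries the ratio lay between 0.931 and 1.03, within 10% of 1. In the sham libraries of day 3 it was 0.225, 0.148 and 0.063. Gm13306 held 3.67% ± 1.54 (SD, n = 3) of the CCL27 sum there, against 22.1% ± 4.26 with CAP at day 3, 21.8% ± 1.63 in the sham group at day 6 and 19.8% ± 0.715 with CAP at day 6. The share of the other rows in the same sham libraries varied widely, from 1.497% to 21.7% for the JH584294.1 row and from 16.9% to 49.3% for Ccl27b. The sum over the 5 rows was tight there, with an SD of 4.004% of its mean. The single rows had SDs of 22.1% to 81.0% of theirs. The sham and CAP-treated wounds of day 3 thus differed in how the CCL27 signal was divided between rows, while the sums overlapped. Whether the division was made in the cells or in the estimation of TPM was not tested. Hemoglobin and erythroid genes separated the same day 3 groups, with summed levels of 514 to 753 TPM in the sham group and 2356 to 2803 TPM with CAP, and 5 of 5 called higher. Their part in the Gm13306 difference was not tested.

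**Figure D2:**
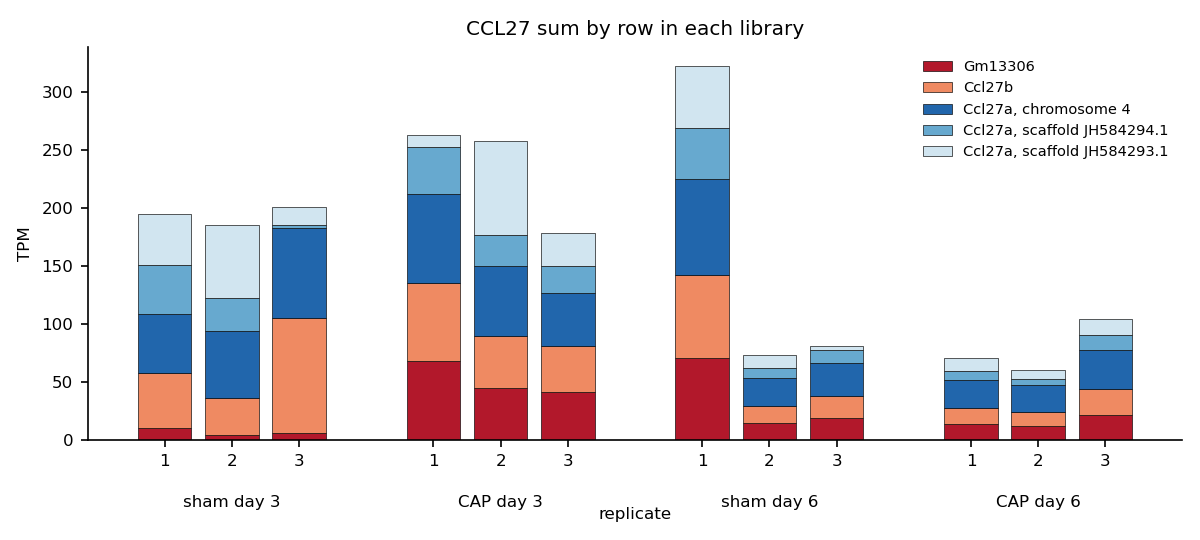
Stacked bars of TPM for the 5 rows of the CCL27 sum in each of the 12 libraries, by group and replicate, with 1 colour per row. The dark red Gm13306 segment is thin in the 3 sham libraries of day 3, where it held 2.50% to 5.41% of the sum, while the bar heights of 185.3 to 200.6 TPM overlap those of the CAP-treated wounds of day 3.

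**Figure D3:**
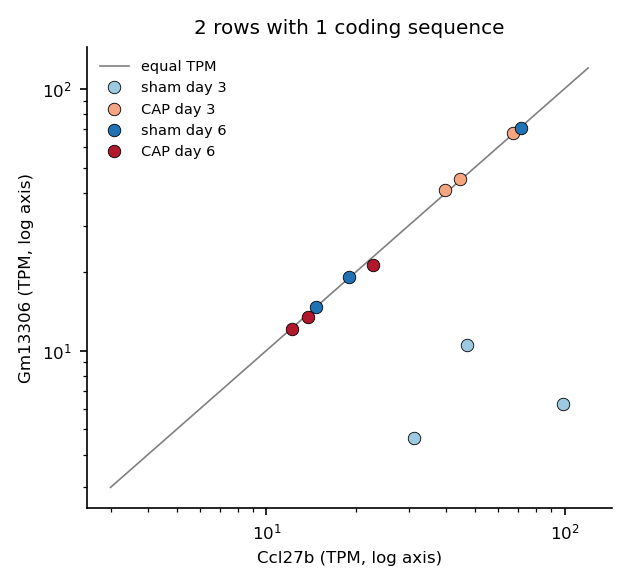
TPM of Gm13306 (vertical, log axis) against TPM of Ccl27b (horizontal, log axis), 1 point per library, with a line of equal TPM. The ratio is within 10% of 1 in 9 libraries, and the 3 sham libraries of day 3 lie far below the line.

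Genes of the differentiating epidermis, whose cells make CCL27, had positive differences between CAP and sham at day 6. The difference of the CCL27 sum was -0.70 and rested on sham replicate 1, without which it was -0.01. At day 6, 3 of 7 genes of suprabasal keratinocytes were higher with CAP and 0 were lower, and the median difference of the list was 0.93, where that of all genes tested was -0.12. Krt1 and Krt10, the keratins of the suprabasal layers, rose by 1.86 (SE 0.37) and 1.62 (SE 0.38), and Dsc1, a desmosomal cadherin, by 1.02 (SE 0.25). Of 10 late differentiation genes 7 were higher and 0 lower, led by Flg, the gene of filaggrin, with 2.26 (SE 0.34). The adjusted limma p of these 4 genes was 0.205 to 0.206. The number called higher in the suprabasal list ran from 2 to 6 when each library of day 6 was left out in turn, and in the late differentiation list from 4 to 8. Krt10 reached 19544, 40801 and 16989 TPM in the CAP-treated wounds of day 6, against 7432 to 8321 TPM in the sham group.

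Set against the mean log2 level of the suprabasal list, the CCL27 sum was lower by 1.43 on the log2 scale at day 6 than at day 3, with an exact permutation p of 0.04 over 400 divisions. The p rose above 0.05 when single libraries were left out, reaching 0.09 without sham day 6 replicate 2. Relative to the basal list, with Krt5, Krt14 and others, the difference was -0.93 (exact permutation p = 0.065), and relative to Krt10 alone it was -2.05 (exact permutation p = 0.02). Between CAP and sham at day 6, the CCL27 sum relative to the suprabasal list was -5.45 ± 0.869 with CAP and -3.61 ± 1.30 in the sham group (mean log2 ratio ± SD, n = 3). The difference of -1.84 had an exact permutation p of 0.2, and the libraries overlapped. Without sham replicate 1 it was -1.10. Relative to the basal list it was -1.03 (exact permutation p = 0.3), and the libraries overlapped too. Relative to Krt10 alone the groups did not overlap, as those of 26% of all genes tested at day 6 did not. The difference was -2.32 with p = 0.1, the smallest that the exact permutation test of 3 against 3 allows. Of this difference, -0.70 was that of the CCL27 sum, and the rest was the rise of Krt10 itself. At day 3 the relative levels were -3.21 ± 0.479 in the sham group and -2.99 ± 0.134 with CAP.

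**Figure D4:**
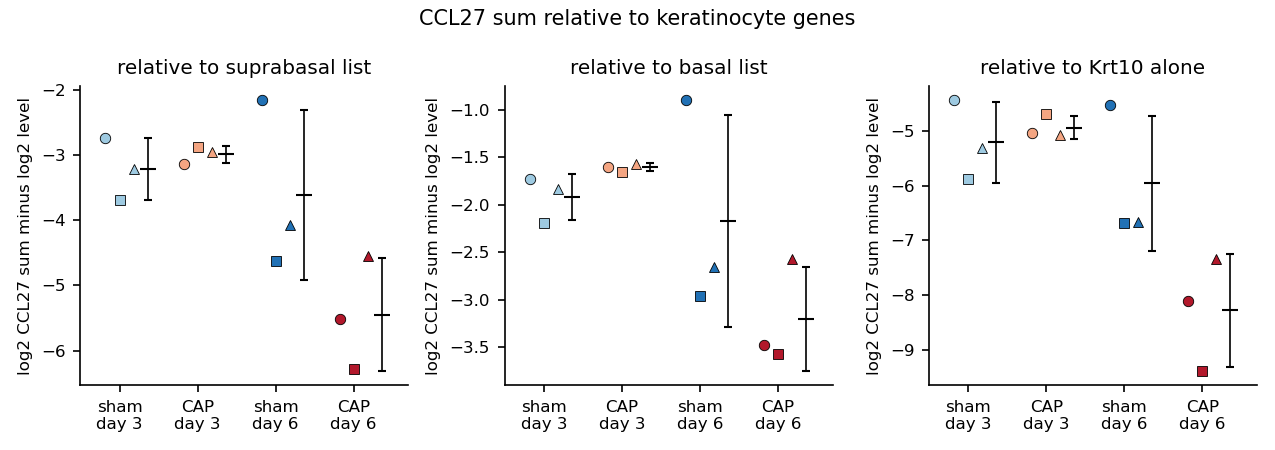
Log2 of the CCL27 sum minus the mean log2 level of the suprabasal list, the basal list or Krt10, by group, with circles, squares and triangles for replicates 1, 2 and 3 and a bar for the mean ± SD. In the panel for Krt10 the CAP-treated wounds of day 6 lie between -9.40 and -7.34 and do not overlap the other groups. In the panels for the suprabasal and the basal list they overlap the sham group of day 6. Of all genes tested at day 6, 26% did not overlap between CAP and sham.

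Ccl20 was the member that separated CAP from sham wounds at day 6. The gene (ENSMUSG00000026166) lies at chr1:83116766-83119167 on the plus strand. At day 6 the sham group had 20.5, 12.3 and 14.7 TPM and CAP-treated wounds had 2.72, 6.51 and 3.92 TPM. Every CAP-treated library was below every sham library. Ccl20 was 3.698-fold lower with CAP, a difference of -1.89 (SE 0.34, limma unadjusted p = 8.24e-04, exact permutation p = 0.1, the smallest it can give). The adjusted p was 0.205, so the difference did not pass an adjustment over all genes. It was the 1 member row of 6 tested that was called, where 2.34% of 18323 genes tested were called lower, 1.46% higher and 3.8% in either direction. It was also the 1 row whose groups did not overlap, as 26% of all genes did not. No gene tested passed an adjusted p of 0.05 at day 6 in limma, while 3517 had an unadjusted p under 0.05. The Ccl20 difference was called in each of 14 alternatives, between -2.21 and -1.60, which include each library of day 6 left out in turn. CAP replicate 2 stood apart from the other libraries of its group, with the lowest neutrophil and the highest suprabasal levels, and had the highest Ccl20 of the 3. Without it the Ccl20 difference was -2.21.

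At day 3 Ccl20 had 7.09, 7.52 and 8.64 TPM in the sham group and 13.4, 9.49 and 4.40 TPM in CAP-treated wounds, and the libraries overlapped. The log2 difference was 0.09, given with no test. From day 3 to day 6 the mean log2 level went up by 0.99 in the sham group and down by -0.99 in CAP-treated wounds, each given with no test. Over both treatments the day difference was 0.00 (SE 0.28, exact permutation p = 0.99). By mean level the groups ran from sham day 6 (15.8 ± 4.23 TPM, SD, n = 3) over CAP day 3 (9.09 ± 4.50) and sham day 3 (7.75 ± 0.802) to CAP day 6 (4.38 ± 1.94). The first 3 overlapped with their neighbours. Sham day 3 and CAP day 6 did not overlap.

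The cytokines that induce CCL20 and other genes of epithelia that answer to IL-17 and IL-1 mostly had negative differences at day 6 too. Of 13 inducing cytokines 10 were found by name and 7 passed the filter. Of these 2 were called lower, 0 higher, and 6 had a negative difference, with a median of -1.12. Over all genes, 6279 of the 18323 tested had a positive difference, so that negative ones were the majority. With a library left out, the number of these cytokines called lower ran from 1, without sham replicate 1 or 2 or CAP replicate 2, to 5, without CAP replicate 3, and the median from -1.75 to -0.66. Il6 was 5.95, 13.5 and 6.63 TPM in the sham group and 4.27, 1.26 and 2.82 TPM with CAP, a difference of -1.66 (SE 0.49, limma adjusted p = 0.212). Osm, the gene of oncostatin M, came to -1.38 (SE 0.52, limma adjusted p = 0.238). Il1b, the highest of the list, had 181, 254 and 125 TPM against 69.8, 24.0 and 183 TPM, a difference of -1.41 (SE 0.68, limma adjusted p = 0.302), and its groups overlapped. Tnf came to -1.12 (limma adjusted p = 0.334). Il1a, a keratinocyte alarmin, did not share the sign, with 0.06. The classical IL-17 cytokines were scarce. Il17a was above the placeholder for 0 in 3 of 12 libraries, at up to 0.396 TPM, Il17f in 6 at up to 0.247 TPM, and Il22 was listed at 0 in all 12. None of 10 receptors of these cytokines tested was called in limma, with a median of -0.22.

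Of 13 genes of the epithelial IL-17 and IL-1 response 11 passed the filter at day 6. All 11 had a negative difference, a sign that most genes tested shared, 3 were called lower and 0 higher, and the median was -1.46. Cxcl5 and Cxcl1, ligands of the neutrophil receptor CXCR2, came to -1.89 (SE 0.40) and -1.65 (SE 0.39), and Csf3, the gene of G-CSF, to -1.93 (SE 0.49). The adjusted limma p was 0.205, 0.205 and 0.206. Without CAP replicate 2 the median of the list was -0.50 with 3 called, and without CAP replicate 3 it was -1.81 with 6 called. Unlike Ccl20, Cxcl5 was also lower at day 6 than at day 3 over both treatments, by -1.48 (SE 0.37, limma adjusted p = 0.0736), whereas Csf3 was higher by 1.90 (SE 0.59, limma adjusted p = 0.133). S100a9, the highest of the list, is also a neutrophil marker. The 6 neutrophil markers summed to 1728 to 3284 TPM in the sham group and to 278 to 2668 TPM with CAP at day 6, with 0 of 5 tested called. Endothelial markers summed to 219.8 to 300.4 TPM against 66.3 to 183 TPM, with 3 of 5 called lower. The endothelial count was 0 after median-ratio scaling, 1 after quantile normalization, 0 without any 1 of the sham libraries or without CAP replicate 2, and 4 without CAP replicate 1 or 3. Macrophage markers overlapped, with 6928 to 9959 TPM against 4078 to 9189 TPM, and 1 of 6 was called lower, Itgam with -1.04 (SE 0.42, limma adjusted p = 0.250), a call lost under both scalings and in 5 of the 6 fits with a library left out, all but that without CAP replicate 3. Their part in the Ccl20 difference was not tested.

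**Figure D5:**
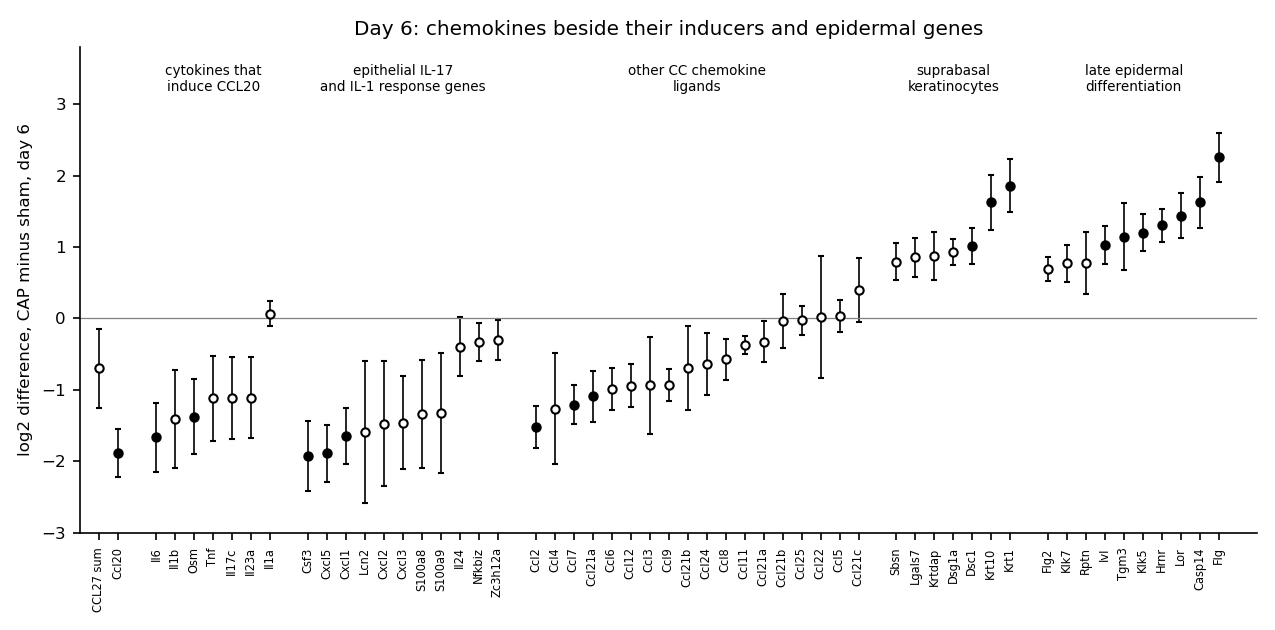
Log2 difference between CAP and sham at day 6 (vertical, with SE) of the CCL27 sum, Ccl20 and the tested genes of 5 lists, filled where called. Ccl20 at -1.89 lies beside Csf3, Cxcl5, Cxcl1 and Il6, while all suprabasal and late differentiation genes lie above 0.

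The receptors were near the floor of the tables. Ccr6 (ENSMUSG00000040899, chr17:8236043-8257141, plus strand) had 0.253, 0.128 and 0.231 TPM in the sham group and 0.385, 0.137 and 0.0551 TPM with CAP at day 3. At day 6 it had 0.0442, 0.513 and 0.121 TPM in the sham group and 0.442, 0.287 and 0.216 TPM with CAP. All neighbouring groups overlapped, and the spread within groups was wide, with up to 11.6-fold between libraries of the sham group of day 6. Ccr10 (ENSMUSG00000044052, chr11:101172997-101175443, minus strand) was listed at 0 in 6 of 12 libraries and reached at most 0.170 TPM, in a sham library of day 3. Its whole length of 2447 bases overlaps Cntnap1 on the other strand, which had 1.62 to 4.52 TPM. Whether the estimation used strand is not given here. Neither receptor passed the filter in any comparison, so neither was tested, and a difference was not detectable at these levels.

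Ccl28 (ENSMUSG00000074715, chr13:119623819-119654359, plus strand) also stayed under the filter. It had 0.192, 0.212 and 0.120 TPM in the sham group and 0.0483, 0.0621 and 0.0691 TPM with CAP at day 3. At day 6 it had 0.0862, 0.115 and 0.105 TPM in the sham group, and 0.192 and 0.260 TPM in CAP replicates 1 and 3, with replicate 2 listed at 0. The day 3 groups did not overlap, a description with no test, and those of day 6 did. Of the genes tested at day 3, 11.6% had groups without overlap. Ccl28 was under the filter and not among them, so that share is no direct measure for it.

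Markers of cells that could carry the receptors were present at low to moderate levels and were mostly not called. Over all genes tested, 1.46% were called higher and 2.34% lower with CAP at day 6. At day 3 the shares were 0.426% and 1.16%, and between the days 0.892% and 1.29%. The 10 T cell markers summed to between 42.3 and 111 TPM over all libraries. At day 6, 1 of 10 was higher with CAP, Cd5 with 1.26 (SE 0.43, limma adjusted p = 0.226), and the median was 0.27. At day 3, 2 of 10 were lower with CAP, Trac and Cd2, with -1.34 (SE 0.40) and -1.01 (SE 0.36), and limma adjusted p = 0.618 and 0.711. Of γδ T cell markers 6 of 11 were found by name and 0 of 5 tested were called in any comparison in limma. Trdc, the constant segment of the δ chain, had 2.52 to 7.66 TPM. B and plasma cell genes summed to 21.5 to 55.3 TPM, and the highest of the list was Ighm, with group means of 20.8 to 39.0 TPM. In the same list Ms4a1 and Cd79a, which encode CD20 and a chain of the B cell receptor, stayed under 0.4 TPM. Langerhans and dendritic cell markers summed to 105 to 231 TPM, with 0 of 6 called. Most of this sum was Epcam, the highest of the list, with group means of 90.5 to 158.6 TPM. Cd207, the gene of langerin, had 10.4 to 31.7 TPM. Regulatory T cell markers had 0 of 5 called at day 6 and 1 of 4 at day 3, Il2ra with -1.09 (SE 0.36, limma adjusted p = 0.692). Among the molecules of T cell homing, Itgb7, an integrin chain, was lower at day 6 than at day 3, by -1.17 (SE 0.23, limma adjusted p = 0.0439). Selplg, which carries the skin homing antigen of T cells, was the highest of the list and was not called. The 5 β-defensin genes, of a family in which several members can act on CCR6, gave 0 calls in each comparison, and Defb14 had 22.4 to 69.7 TPM.

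Among the other CC chemokines, the monocyte ligands Ccl2 and Ccl7 were lower with CAP at day 6. At day 6, of 18 rows tested 3 were lower with CAP and 0 higher, and 15 had a negative difference, as most genes tested did, with a median of -0.66. Ccl2 had 47.3, 47.7 and 29.7 TPM in the sham group and 21.3, 11.8 and 11.2 TPM with CAP, a difference of -1.52 (SE 0.30, limma adjusted p = 0.205). Ccl7 came to -1.21 (SE 0.28), and 1 of the rows named Ccl21a, a lymphoid chemokine, to -1.09 (SE 0.36). Ccl6 was the most abundant CC ligand, with 1135 ± 70.4 TPM in the sham group and 607 ± 235 TPM with CAP at day 6, and was not called. Ccr2, the receptor of CCL2 and CCL7, was the 1 of 10 other receptors called at day 6, with -1.04 (SE 0.42, limma adjusted p = 0.250). That call was lost under both scalings and when replicate 1 or 3 of the sham group or replicate 2 of the CAP group was left out. Without CAP replicate 3 the list had 4 called lower and 1 higher. At day 3 Ccr2 was also lower with CAP, by -1.33 (SE 0.22, limma adjusted p = 0.5002). The number of ligands called lower ran from 1, without CAP replicate 2, to 7, without CAP replicate 3. CCL22 binds CCR4, another skin homing receptor of T cells. Ccl22 came to 0.02 and Ccr4 to 0.61 (limma adjusted p = 0.225), neither called.

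From day 3 to day 6, over both treatments, Ccl24, Ccl9 and Ccl2 fell by 2.46 (SE 0.37), 1.34 (SE 0.215) and 1.55 (SE 0.18) on the log2 scale, with limma adjusted p = 0.0201, 0.0235 and 0.009998. Ccl3, an inflammatory chemokine of macrophages, rose by 1.34 (SE 0.42, limma adjusted p = 0.131). The wound keratins Krt6a and Krt6b and the cystatin gene Stfa1 fell with the day as CCL27 did, by 1.27 (SE 0.31), 1.48 (SE 0.33) and 1.21 (SE 0.38). All 7 genes of that list had a negative difference, with a median of -0.95, while 0 of 7 suprabasal genes were called and their median was 0.16.

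The annotated genes beside the CCL27 rows shared the sign of the day 6 difference. All 9 neighbours within 20 kb that passed the filter had a negative difference between CAP and sham, as most genes tested did. Il11ra1, the IL-11 receptor gene, overlaps the end of the chromosome 4 row of Ccl27a by 8 bases on the other strand. It had 47.6 to 180 TPM and came to -0.81 (SE 0.34) without being called. Ccl19-ps3, annotated near Gm13306, was called lower with -2.99 (SE 0.75, limma adjusted p = 0.206). It had 5.04, 2.79 and 7.66 TPM in the sham group and 0.406, 0.142 and 1.78 TPM with CAP at day 6. The Il11ra2 row beside the JH584293.1 copy was called lower with -1.02 (SE 0.38, limma adjusted p = 0.236). Galt came to -0.05. Gm13305 lies 2 bases from Gm13306. In the sham libraries of day 3, where Gm13306 was low, it had 3.702, 3.15 and 3.903 TPM, against 5.06, 3.56 and 1.78 TPM with CAP.

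The genes whose levels ran most like the CCL27 sum over the 12 libraries, among 16917 genes searched, were Mill1 (Pearson r = 0.923), Gm13339 (0.919) and Itgb6 (0.909). After each group was centred on its mean, r was 0.890, 0.893 and 0.786. Mill1, an MHC class I-like gene, had 68.9 TPM in sham day 6 replicate 1 and 5.62 to 22.1 TPM in the other 5 libraries of day 6. Itgb6 encodes an integrin chain of epithelia that is raised in wounds. For Ccl20 the nearest were Mettl1, Psd and Hnrnpk, with r = 0.919, 0.869 and 0.851, and 0.727, 0.583 and 0.579 after centring. Mettl1, an RNA methyltransferase, had 17.1 to 18.04 TPM in the sham group and 11.9 to 13.1 TPM with CAP at day 6. For Ccr6 they were Lpo, Zw10 and Slc26a9, with r = 0.900, 0.870 and 0.867. For Ccr10 they were Zfp955b, Gm9517 and Unc45b, with 0.869, 0.858 and 0.852, and for Ccl28 they were Gm12734, Adnp and Catsper2, with 0.864, 0.860 and 0.847. These are the highest of many values over libraries that share their group differences, and for members under 0.6 TPM they rest on sparse counts.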

How the data were processed

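Libraries of wound mRNA (SureSelect XT HS2) were sequenced from both ends. Per the labels and the study's methods, the authors used bcl2fastq 2.20, Trimmomatic 0.36, the mm10 genome and StringTie 2.1.4, and deposited 1 table of TPM per library. In the deposited TPM values, 0.0001 stands for 0, and the read depth was unknown, so precision rests on 3 libraries per group. The tables' coordinates were those of GENCODE M21 (GRCm38) for 54777 of 55487 genes. The division of reads between gene copies and the use of strand are not stated in the sources used here.

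The members and the gene lists were chosen with earlier results of these data known, so p-values gauge a difference against the spread and are no independent support. Groups came from the sample labels. limma 3.58.1 (R 4.3.3) with a trend was fitted to log2(TPM + 0.1) of the genes whose mean reached 0.3 TPM on both sides, with Benjamini-Hochberg adjustment over all genes tested. The call rule, an unadjusted p under 0.05 and 2-fold, follows the study. CAP against sham was fitted on the 6 libraries of a day, and day 6 against day 3 on all 12. The CCL27 sum entered as an extra row. Exact permutation tests were 2-sided, with a smallest p of 0.1 (3 against 3) and 0.005 (days within treatment). Named genes were all members, annotated neighbours within 20 kb of a CCL27 row, the called genes of each list (at most the 4 with the smallest p per comparison) and its highest gene, and the 3 most correlated genes among those with at least 1 TPM in a group. Others are named for their role: Il1a, Tnf, Il17a, Il17f, Il22, Ccl22, Ccr4, Trdc, Cd207, Ms4a1, Cd79a, Krt5, Cntnap1 and Defb14 were chosen after their values were seen. Alternatives were pseudocounts of 1 and 0.01 TPM, 2 other filters, 2 scalings, a joint fit, a replicate block and each library left out. Scripts were tested on simulated data. Some results that the rule would name are not reported here.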

Additional observations from a re-analysis of the deposited data

How the results depend on the processing

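Each group had 3 libraries and the depth was unknown, so a member under 0.3 TPM could not be tested. The count of genes called at day 6 was 697 and fell to 385 with a pseudocount of 1 TPM. With each library left out it ranged from 311 (without CAP replicate 2) to 1483 (without CAP replicate 3, where 1430 passed the adjusted p), so the background against which Ccl20 is read depends on these libraries. The day comparison called 404 genes, 180 with a pseudocount of 1 TPM, 715 with no filter and 622 with a filter on at least 1 side, and 357 to 473 with a library left out. At day 3 it was 290 genes, and 154, 568 and 454 under the same settings, with 204 (without CAP replicate 2) to 510 (without CAP replicate 1) when a library was left out.

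At day 6 the median log2 difference of all genes was -0.12, and median-ratio scaling or quantile normalization moved it to 0.00. The split of called genes was 268 higher and 429 lower as deposited, 403 and 285 after median-ratio scaling and 403 and 248 after quantile normalization. Ccl20 remained called lower under both. At day 3 the split was 78 higher and 212 lower, and 105 and 158 after quantile normalization.

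The CCL27 sum kept its sign in the day comparison, -1.46 to -0.92 with a library left out, and lost the 2-fold threshold without sham day 6 replicate 2 or 3. At day 6 it ranged from -1.08 to -0.01 and at day 3 from 0.15 to 0.43, but was -0.06 at day 3 without Gm13306. The sum relative to the suprabasal list ranged from -1.80 to -1.18 in the day comparison, with an exact permutation p above 0.05 without any of 9 libraries, and was -0.93 (p = 0.065, exact permutation) relative to the basal list. At day 6 it ranged from -2.34 to -1.10 and at day 3 from -0.02 to 0.46. The share of Gm13306 in the sham libraries of day 3 was 2.80% to 4.26%. Small differences changed sign with a library left out: Ccl20 over days from -0.22 to 0.18, Gm13306 over days from -0.21 to 0.36, and at day 6 the Ccl27a rows on chromosome 4 from -0.86 to 0.0337 and on JH584293.1 from -1.21 to 0.63. The cause was not tested.

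Same-numbered sham and CAP libraries correlated at -0.108 to 0.0381 at day 3 and 0.0170 to 0.0938 at day 6. Libraries of different number correlated at -0.130 to 0.131 at day 3 and -0.0799 to 0.0120 at day 6. The same-numbered values thus lay within the others at day 3 and above them at day 6. These values do not settle whether the numbers pair the libraries, and the main fits treat them as unpaired. With a replicate block 725 genes were called at day 6, 402 over days and 298 at day 3, and the block changed no call of a member. The genes with an unadjusted limma p under 0.05 at day 6 went from 3517 to 4146 with the block.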
